A study of Mus musculus with 4 samples.

Results

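Mouse chromosome 1 was followed by array comparative genomic hybridisation (CGH) in liver tumours of 4 mice. Its members were all 12493 mapped probes of chromosome 1 among the 170305 mapped probes of the array. They were chosen by position on the mm9 build alone and split at 130 Mb, giving 7760 probes below the boundary and 4733 from it. All 4 tumours came from male-labelled FAH-/- Trp53-/- mice, which lack both alleles of the tyrosine-breakdown enzyme fumarylacetoacetate hydrolase and of p53. Such mice are kept alive by NTBC, an inhibitor that acts further up in tyrosine breakdown. The labels give 7.5 mg/L in drinking water as the full dose and a reduced dose of 2.5% of it for 6 months. The control was liver DNA of male FAH+/+ Trp53+/+ littermates, 3 animals pooled, so the spread between normal livers was not measured. The tumours, numbered 239, 240, 244 and 252, were labelled with Cy5 and the pool with Cy3 throughout, with no dye swap, and the 4 arrays lay on 1 slide. The labels give no age, and the share of tumour cells in each sample is not given in the sources used here. A single-copy gain in every cell of a diploid sample would give a log2 ratio of 0.58, a single-copy loss would give -1, and normal cells in a sample bring both closer to 0.

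In CGH, tumour and reference DNA compete for the same probes, and the log2 ratio of the 2 colours follows the relative copy number of the probed stretch. Gain of the long arm of chromosome 1 is a frequent event in human liver cancer, and its mouse counterpart is divided: much of human 1q lies at the distal end of mouse chromosome 1, and other stretches lie on mouse chromosome 3. The rest of mouse chromosome 1 corresponds mainly to human 2q, with a head that resembles human 8q. The 1q-like end carries Mdm4, whose product inhibits p53, together with Parp1, Nr5a2 and gene clusters of the immune system. Mdm4 is of interest as a growth-promoting gene where p53 is present, and these tumours have no functional Trp53 allele by their labels.

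Probes were 60 bases long at the median and lay 11.3 kb apart on chromosome 1. The following 3 probes of Mdm4 are shown because Mdm4 is the gene of the 1q-like end that bears most directly on p53. They lie at chr1:134888882-134888941, chr1:134898171-134898230 and chr1:134907508-134907567 of mm9. Sequences are those of the scanner files, CG pairs are in capitals, and the strand is not given in the sources used here.
Mdm4 probe 1: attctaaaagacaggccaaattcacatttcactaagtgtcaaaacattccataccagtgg
Mdm4 probe 2: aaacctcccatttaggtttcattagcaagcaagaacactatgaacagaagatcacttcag
Mdm4 probe 3: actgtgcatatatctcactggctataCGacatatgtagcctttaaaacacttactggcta

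The next 6 probes are shown because they gave the lowest and the highest mean log2 ratios of the chromosome over the 4 tumours. The lowest 3 lie at chr1:101077186-101077240, chr1:26305314-26305373 and chr1:73651445-73651504 and carry no gene name in the files. The highest 3 lie at chr1:91048229-91048288 in Sh3bp4, chr1:74098378-74098437 in Tns1 and chr1:90672928-90672987 with no gene name. Whether a probe lies in an exon or an intron was not analysed here.
Low probe 1: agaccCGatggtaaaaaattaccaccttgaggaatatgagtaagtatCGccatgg
Low probe 2: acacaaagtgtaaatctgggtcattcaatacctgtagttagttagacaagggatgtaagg
Low probe 3: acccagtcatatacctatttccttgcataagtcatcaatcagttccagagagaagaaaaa
High probe 1: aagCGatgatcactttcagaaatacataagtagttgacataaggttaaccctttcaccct
High probe 2: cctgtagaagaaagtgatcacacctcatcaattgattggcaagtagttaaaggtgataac
High probe 3: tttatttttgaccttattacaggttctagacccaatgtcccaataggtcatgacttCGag

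On each array, 98.8% to 99.9% of chromosome 1 spots were well above background in a given colour and 0 were saturated. The noise SD between neighbouring probes of the chromosome was 0.25, 0.31, 0.34 and 0.35 in tumours 239, 240, 244 and 252. Each value below is log2 of tumour over pool after centring the array on its autosomal median.

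Chromosome 1 stood above the array's median in tumour 244 and near it in the other tumours. Below the boundary the mean log2 ratio was -0.051 in tumour 239, -0.069 in tumour 240, 0.193 in tumour 244 and -0.024 in tumour 252. Tumour 244 lay apart from the other 3, which spanned less than 0.05. From the boundary on, in the human 1q-like end, the mean was -0.0056, -0.050, 0.227 and 0.014 in the same order. Over the tumours this gave 0.012 ± 0.12 (SD, n = 4) below the boundary and 0.046 ± 0.12 (SD, n = 4) from it. Neither differed from 0 in a two-sided exact permutation test that flips signs (p = 1 and p = 0.75), a design in which the smallest possible p is 0.125. Without tumour 244 the means became -0.048 and -0.014, so their sign rests on that tumour.

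The 1q-like end stood slightly above the rest of the chromosome in every tumour. The difference, distal minus proximal, was 0.046 in tumour 239, 0.018 in tumour 240, 0.034 in tumour 244 and 0.038 in tumour 252. It averaged 0.034 ± 0.012 (SD, n = 4) and was above 0 in 4 of 4 tumours. The same exact permutation test returned p = 0.125, the smallest value that 4 tumours allow. The 4 arrays share the pool, the dye orientation and the slide, so the 4 differences are not fully independent. Where the difference comes from was not tested. Tumour 244, whose chromosome 1 was highest, fell within the range of the other 3 in this difference. Centring cancels here, and leaving out tumour 244 left the mean at 0.034. Medians over probes, which lone outlying probes move little, gave a difference of 0.022. A single-copy gain of the distal end alone in every cell would give 0.58 on this scale.

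**Figure D1:**
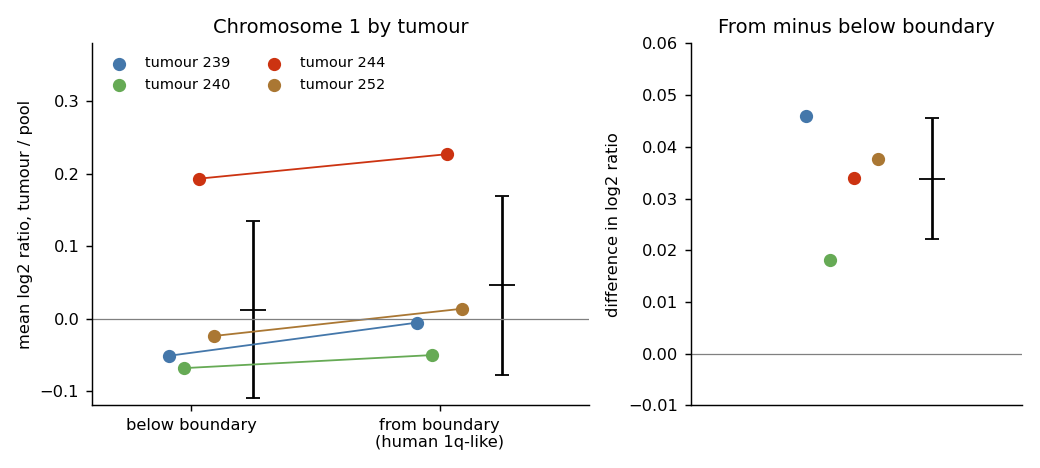
Mean log2 ratio of chromosome 1 probes below and from the boundary in each tumour (left, points joined within a tumour), and the difference between both stretches (right). Bars give the mean and SD over 4 tumours: tumour 244 lies above the other 3 on the left, at 0.19 and 0.23, and among them on the right.

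Set against the other autosomes of the same array, chromosome 1 ranked 14th of 19 from the highest in tumour 239, 17th in tumour 240, 5th in tumour 244 and 13th in tumour 252. In tumour 244 its mean of 0.21 lay between 2 sets of chromosomes. Chromosomes 2, 5 and 11 together averaged 0.09, and chromosomes 16, 8, 18 and 15 stood at 0.30, 0.33, 0.34 and 0.35. Chromosome 1 thus exceeded chromosomes 2, 5 and 11 by 0.11 in that tumour, by 0.10 below the boundary and by 0.14 from it. Chromosomes 8, 16, 18 and 15 exceeded them by 0.24, 0.21, 0.25 and 0.26. In tumours 239, 240 and 252 chromosome 1 was below chromosomes 2, 5 and 11, by -0.05, -0.11 and -0.03. Over the 4 tumours that difference was -0.02 ± 0.09 (SD, n = 4; two-sided exact permutation p = 0.75). The most common level of autosomal 1 Mb bins in tumour 244 was itself 0.11 above the array's median, against 0.01, -0.01 and 0 in tumours 239, 240 and 252. Measured from that level, chromosome 1 of tumour 244 stood at 0.10.

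**Figure D2:**
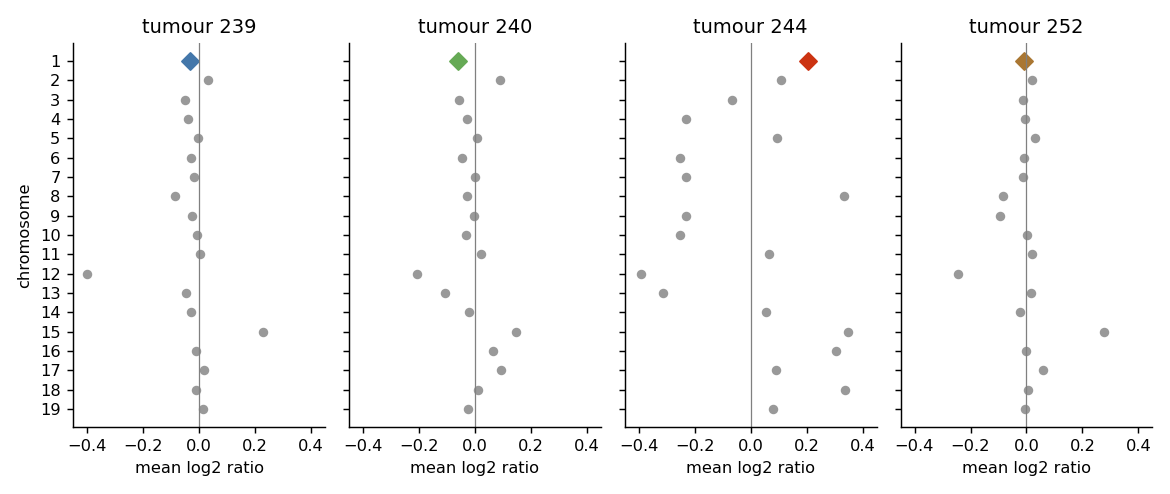
Mean log2 ratio (horizontal axis) of each autosome (vertical axis) in the 4 tumours, with chromosome 1 as a coloured diamond and the other autosomes as grey points. Chromosome 1 lies near 0 in tumours 239, 240 and 252, and in tumour 244 at 0.21, between the group around 0.09 and the group above 0.3.

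Segmentation, which divides a chromosome into stretches of constant level, gave the same division. In tumour 244 the whole probed length of 194 Mb formed 1 segment at 0.21, past the threshold of 0.2 for a gain. Neighbouring segments closer than 0.1 were merged. A step at the 1q-like boundary as small as that tumour's distal minus proximal difference, 0.034, could therefore not appear. Tumours 240 and 252 also formed 1 segment each, at -0.06 and -0.01, and neither was called. The gain call of tumour 244 exceeds its threshold by less than 0.01. Its called share of 100% became 0% with the array centred on the mode of its probes or of its bins, with normexp background correction, and at a threshold of 0.3.

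In tumour 239 the chromosome was cut into 4 segments. The first ran from 3017293 to 101017885 at -0.04, the third from 101114782 to 127057774 with 1231 probes at -0.13, and the last from 127067594 to the end at -0.003. The third interval averaged -0.13, 0.15 and -0.08 in tumours 240, 244 and 252, where it was not a segment of its own, and each of these was below that tumour's chromosome mean. Between the segments at -0.04 and -0.13 lay the 1 called loss, 5 probes at chr1:101036196-101090047 with no named gene, at -1.46. The levels of both flanking segments were closer than the merging limit of 0.1, and only these 5 probes lay between them. Whether the segment at -0.13 would stand without the 5 probes was not tested. The same 5 probes averaged -1.92, -1.56 and -1.50 in tumours 240, 244 and 252. Low probe 1 lies among them, and without it the 4 remaining probes averaged -0.54, -0.88, -0.37 and -0.54 in tumours 239, 240, 244 and 252. The call was lost in tumour 239 when outlying probes were drawn in towards their neighbours.

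At a scale of 1 Mb, 95 of 193 bins of chromosome 1 (49.2%) reached 0.2 in tumour 244, against 21.4% of the autosomal bins of that array. These were 52 of 125 bins below the boundary and 43 of 68 from it. No bin of tumour 244 reached -0.2, where 30.5% of its autosomal bins did. In tumours 239, 240 and 252, 0 bins reached 0.2, with autosomal shares of 3.14%, 1.51% and 3.69%. Bins at -0.2 or below numbered 11, 14 and 5 of 193 in these 3 tumours, against 9.76%, 6.11% and 7.04% of autosomal bins.

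**Figure D3:**
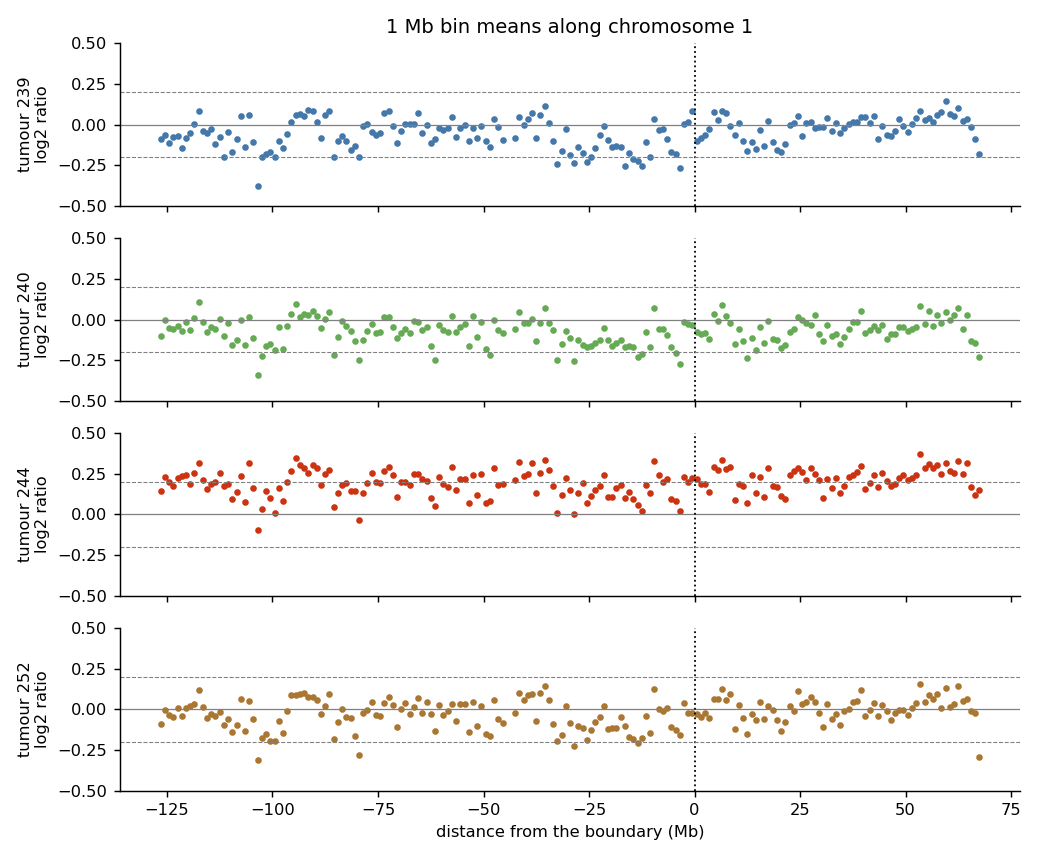
Mean log2 ratio of 1 Mb bins of chromosome 1 (points) against distance from the boundary in Mb, 1 panel per tumour, with the dotted line at the boundary and dashed lines at 0.2 and -0.2. The points of tumour 244 are shifted upwards along the full length, and the same dips and rises recur in all 4 panels.

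Levels undulated along the chromosome in the same places in every tumour. Among 20 windows of 10 Mb, the lowest was 110 to 120 Mb in all 4 tumours, with -0.18 in tumour 239, -0.15 in tumour 240, 0.12 in tumour 244 and -0.12 in tumour 252. That window held 5 named genes, the fewest of the 20. The window 100 to 110 Mb came next in each, at -0.14 in tumours 239 and 240, 0.13 in tumour 244 and -0.10 in tumour 252. The window 180 to 190 Mb, in the 1q-like end, was the highest in tumours 239, 244 and 252, at 0.04, 0.27 and 0.06. It reached -0.01 in tumour 240. Across the 20 windows, levels of 2 tumours correlated with Pearson r between 0.85 and 0.97, where all arrays share the reference pool and the slide. The correlation of level with the number of named genes per window was 0.74, 0.53, 0.57 and 0.63 in tumours 239, 240, 244 and 252, given as a description over windows of 1 chromosome. The order was loose: the window 170 to 180 Mb held 106 named genes at a mean of 0.03 over the tumours, and the window 190 to 200 Mb held 50 at 0.07. The part of gene content in the levels was not tested.

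Subtracting the mean of the other 3 tumours removes what the arrays share. For tumour 244 the remainder was nearly flat: it lay between 0.22 and 0.27 in the 20 windows, with a median of 0.24, and its SD over windows was 0.01, where the tumour's own level had an SD of 0.04. Its mean over 1 Mb bins was 0.24 below the boundary and 0.24 from it, and it was above 0 in 193 of 193 bins. The same remainder averaged 0.07 on chromosomes 2, 5 and 11, 0.40 on chromosome 8, 0.29 on chromosome 16 and 0.34 on chromosome 18. For the other tumours it was -0.09 below and -0.07 from the boundary in tumour 239, -0.10 and -0.13 in tumour 240, and -0.05 and -0.04 in tumour 252. These 3 values include tumour 244 among the subtracted tumours. With 1 tumour set against 3, this is a description without a test.

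**Figure D4:**
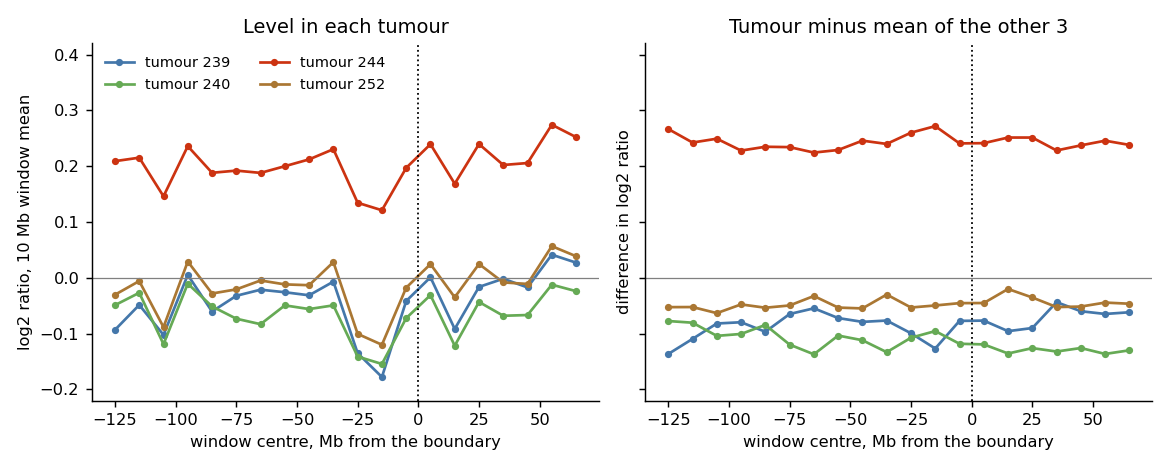
Mean log2 ratio of 10 Mb windows of chromosome 1 by tumour (left), and the same after subtracting the mean of the other 3 tumours (right), against distance of the window centre from the boundary in Mb (dotted line). The profiles rise and fall together on the left; on the right tumour 244 is a flat line between 0.22 and 0.27 on both sides of the boundary.

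A shift of single bins away from 0 over the 4 tumours was tested with limma on all bins. The arrays share the pool, the dye orientation and the slide. A tumour change and a shift common to the arrays therefore cannot be told apart by this test. On chromosome 1, 0 of 193 bins were called higher and 1 lower at a Benjamini-Hochberg adjusted p below 0.05, against 4.61% higher and 8.47% lower of 2538 bins of the array. At an unadjusted p below 0.05 the count was 18 bins in both directions. The called bin, chr1:26000001-27000000, had 30 probes and the gene name 4931408C20Rik, with -0.38 in tumour 239, -0.34 in tumour 240, -0.09 in tumour 244 and -0.31 in tumour 252. Its mean was -0.28 ± 0.13 (SD, n = 4; limma adjusted p = 0.0345). It contains low probe 2, and without that probe the mean was -0.16. The highest bin, chr1:183000001-184000000 in the 1q-like end, carries Lbr and Enah among others and averaged 0.17 ± 0.14 (SD, n = 4; limma adjusted p = 0.107). The call of the low bin was lost without tumour 239, 240 or 252, under normexp, among probes well above background and with 5 Mb bins. Lower calls over the whole array numbered 0, 65 and 132 without tumours 239, 240 and 252, against 215 with all 4 tumours. Without tumour 244 the counts were 9 higher and 57 lower on chromosome 1, where 310 and 593 of all 2538 bins of the array were called. The rise was thus not confined to chromosome 1.

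Gene values, means over a gene's probes, were tested against 0 in the same model, with the same limit of a shared pool, dye orientation and slide. Of 1160 named genes on chromosome 1, 190 were called higher (16.4%) and 109 lower (9.4%), against 17.6% and 15.1% of 18692 genes of the array. Below the boundary 100 were higher and 64 lower of 633, and from it 90 were higher and 45 lower of 527, so both stretches had 25.9% and 25.6% of their genes called, with 32.8% over all genes. The called share went down with the number of probes. It was 41.7% among 333 genes with 1 probe, 27.4% with 2 to 4 probes, 13.9% with 5 to 9 and 6.88% among 189 genes with 10 or more. Among the latter, 11 were higher and 2 lower, the lower ones being ENSMUST00000115216 and Nhej1, named here after their values were seen. After correction for probe and regional GC content, 40 genes of chromosome 1 were called higher and 48 lower, against 893 and 906 over the array. Of the 49 called genes named in what follows or in the gene lists, 36 were no longer called after that correction, and 25 without tumour 240. Deviations of single probes from their surroundings correlated between arrays with r between 0.72 and 0.87 over 12492 probes.

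**Figure D5:**
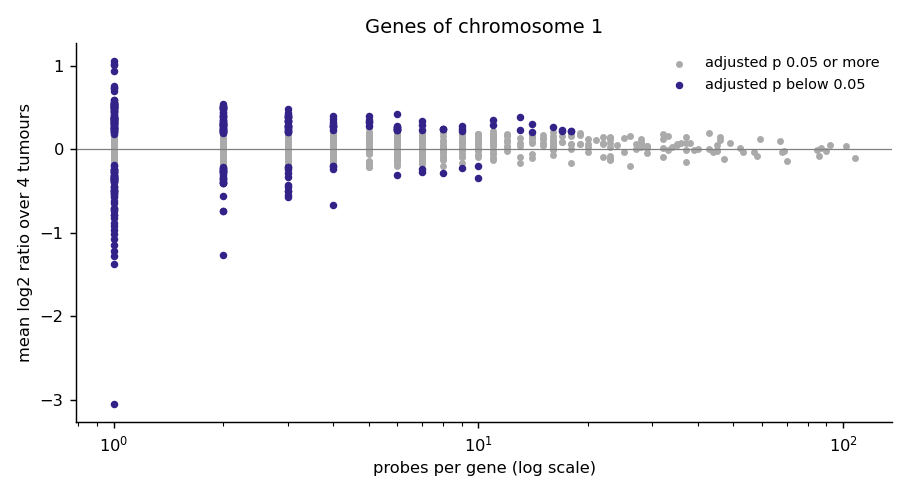
Mean log2 ratio over 4 tumours of each named gene of chromosome 1 (vertical axis) against its number of probes (horizontal log axis), with genes called by limma at an adjusted p below 0.05 in purple. The called genes are mostly those with few probes, and the spread narrows to the right.

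Mdm4 was not called. Its 5 probes, from 134888882 to 134926474, averaged -0.20 in tumour 239, -0.02 in tumour 240, 0.24 in tumour 244 and 0.03 in tumour 252. Tumour 244 was the highest and close to the mean of its 1q-like end, 0.23, and tumour 239 was the lowest and below its own 1q-like end, -0.0056. The mean was 0.01 ± 0.18 (SD, n = 4; limma adjusted p = 0.923), and it was -0.06 after GC correction. The 3 printed probes covered a wide range: Mdm4 probe 1 averaged -0.19, probe 2 averaged 0.08 and probe 3 averaged 0.34 over the tumours. In tumour 244 they gave 0.03, 0.45 and 0.47.

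Among 33 measured genes of the 1q-like end on a broad list of oncogenes and growth signalling, 5 were called higher, 1 lower and 27 neither. Over all genes 17.6% were higher and 15.1% lower. The median of the 33 was 0.27 in tumour 244, with 22 of 33 at 0.2 or more, where 28% of all genes of that array reached 0.2 and 309 of 527 genes of the 1q-like end did. In tumours 239, 240 and 252 the medians were 0.07, -0.002 and 0.06, with 5, 2 and 4 genes at 0.2 or more, against 17.8%, 19.7% and 26.7% of all genes. Among the members with the most probes were Smyd3, a lysine methyltransferase, and Kcnh1, a potassium channel. Smyd3 (59 probes) gave 0.08, 0.04, 0.29 and 0.09 in tumours 239, 240, 244 and 252, averaging 0.12 ± 0.11 (SD, n = 4; limma adjusted p = 0.181). Kcnh1 (33 probes) gave 0.06, 0.08, 0.37 and 0.10. In both genes tumour 244 was the highest.

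The called members of that list were chosen for mention after their values were seen, and each had between 1 and 9 probes. Ikbke, a kinase of the NF-kB pathway, had 0.32, 0.33, 0.57 and 0.33 on 3 probes (mean 0.39 ± 0.12, SD, n = 4; limma adjusted p = 0.00528). Under normexp its mean turned to -0.20. Mapkapk2, a stress kinase, averaged 0.36 on 4 probes, and Psen2, a subunit of gamma-secretase, 0.32 on 3. Rab3gap2 averaged 0.28 on 9 probes. Cnih4 averaged 0.53 on 1 probe, with 0.40, 0.04, 0.95 and 0.72 in tumours 239, 240, 244 and 252. Under normexp Cnih4 turned to -0.20. The lower member was Parp1, the poly(ADP-ribose) polymerase of DNA repair, with -0.55, -0.45, -0.15 and -0.44 on 2 probes (mean -0.40 ± 0.17, SD, n = 4; limma adjusted p = 0.00786). It was not called under normexp (-0.16, limma adjusted p = 0.126) or after GC correction (-0.24, limma adjusted p = 0.346). Psen2 at 0.07 and Rab3gap2 at 0.10 also lost their calls under normexp, and Mapkapk2, at 0.30, did not. Tumour 244 was again the highest of the 4 in Parp1, although below 0.

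The list of p53 regulators and targets had 9 measured genes, of which 3 were higher and 2 lower, against 17.6% higher and 15.1% lower over all genes. Btg2, an antiproliferative p53 target, rested on 1 probe with 0.82, 0.81, 1.25 and 1.21 (mean 1.02 ± 0.24, SD, n = 4; limma adjusted p = 0.000699). Under normexp it fell to 0.23 and was no longer called (limma adjusted p = 0.0876). Atf3, a stress-induced transcription factor, averaged 0.20 on 1 probe, and 0.09 without a call after GC correction. Tmem63a averaged -0.25 on 2 probes, and -0.03 without a call under normexp. Ikbke and Parp1 were the other called members. Bcl2, the inhibitor of cell death, had 19 probes and gave 0.07, -0.08, 0.24 and 0.03, averaging 0.06 ± 0.13 (SD, n = 4; limma adjusted p = 0.504). Steap3, an iron reductase, averaged 0.003 on 4 probes.

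Tumour suppressors of the 1q-like end, 9 measured, had 2 called higher and 0 lower, with 17.6% and 15.1% of all genes. Fh1, the fumarase of the citric acid cycle, gave 0.26, 0.22, 0.19 and 0.32 on 2 probes (mean 0.25 ± 0.06, SD, n = 4; limma adjusted p = 0.0145), and here tumour 244 was the lowest. After GC correction it was 0.26 without a call. Btg2 was the other one. Cdc73, the parafibromin gene, had 11 probes and averaged 0.05 ± 0.13 (SD, n = 4; limma adjusted p = 0.577). Brinp3 (40 probes) averaged 0.003 and Rassf5 (7 probes) 0.05. At a single gene level the called members thus had 1 or 2 probes, and the best-covered ones were not called.

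Below the boundary, 1 of 17 oncogenes and growth-signalling genes was called, Twist2, a helix-loop-helix factor, at 0.25 ± 0.18 on 6 probes (SD, n = 4; limma adjusted p = 0.0440). Erbb4, a receptor tyrosine kinase with 108 probes, gave -0.10, -0.24, 0.05 and -0.13 in tumours 239, 240, 244 and 252. Prex2 (32 probes), a guanine nucleotide exchange factor, averaged 0.18, and Hdac4 (26 probes), a histone deacetylase, 0.16, neither of them called. Of 11 genes listed as proximal tumour suppressors and cell death genes, 3 were higher and 0 lower, and over all genes 17.6% were higher and 15.1% lower. The higher ones were Xrcc5, the Ku80 subunit of end-joining repair, Tnfrsf11a, the receptor RANK, and Cyp27a1, an enzyme of bile acid synthesis. The list is broad, and Cyp27a1 is also on the list of hepatocyte genes. Tnfrsf11a turned from 0.23 to -0.22 under normexp, and Cyp27a1 from 0.50 to -0.42. Phlpp1 (22 probes), a protein phosphatase, averaged 0.07, and Bmpr2 (11 probes), a BMP receptor, averaged -0.13. In tumour 244, 12 of the 17 genes of the growth list and 8 of the 11 of the suppressor list reached 0.2, while 361 of all 633 proximal genes did.

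Of 17 genes of the chromosome on a broad list for mitosis and chromosome segregation, 3 were higher and 2 lower. These shares are close to the 17.6% and 15.1% of all genes. Sgo2a, a protector of centromeric cohesion, averaged 0.38, Aspm, a spindle pole protein, 0.30, and Dtl, a ubiquitin ligase adaptor, 0.24, and of these Aspm turned to -0.14 and Sgo2a fell to 0.09 under normexp. Mcm3, a subunit of the replicative helicase below the boundary, gave -1.21, -1.46, -1.16 and -1.23 on 2 probes (mean -1.26 ± 0.13, SD, n = 4; limma adjusted p = 7.96e-05). A single one of these probes, at 20803898, averaged -2.61 over the tumours. Cenpl, a kinetochore protein, averaged -0.38 on 1 probe. The best-covered members of this broad list, Nek7 (14 probes), Cep350 (11 probes) and Kif1a (8 probes), averaged -0.05, 0.10 and 0.20 without a call.

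Of 23 hepatocyte and liver metabolism genes, 3 were higher and 2 lower, all on 1 or 2 probes, with 17.6% and 15.1% of all genes. Cyp27a1 averaged 0.50, Adipor1, an adiponectin receptor, 0.48, and Agxt, which clears glyoxylate, 0.36. Apoa2, an apolipoprotein of high-density lipoprotein, averaged -0.58, and C4bp, which binds complement, -0.39. Under normexp Agxt turned to -0.17, Cyp27a1 changed sign as above, Adipor1 fell to 0.24 without a call, and Apoa2 and C4bp stayed called at -0.29 and -0.44. The urea cycle gene Cps1 had 11 probes and gave -0.16, -0.27, 0.03 and -0.04. Nr5a2 (12 probes), a nuclear receptor of bile acid metabolism, gave 0.08, 0.01, 0.34 and 0.18. Aox3 (9 probes), an aldehyde oxidase, averaged 0.01.

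The immune gene clusters of the distal end, 28 genes measured, had 5 higher and 5 lower, close to the 17.6% and 15.1% of all genes. Among the lower ones were Ly9 (-0.70, 1 probe) and Cd244a (-0.57, 3 probes) of the SLAM family, Fcer1a (-0.32) and Cr1l (-0.22). Higher were Slamf8 (0.38, 1 probe), Selp (0.35, 3 probes), Aim2 (0.28), Slamf7 (0.24) and Ifi204 (0.23). Neighbouring members of the SLAM family thus lay on both sides of 0. Under normexp Fcer1a, Cr1l, Aim2 and Ifi204 changed sign, Selp fell to 0.12 and Slamf7 to 0.18 without a call, and Ly9 and Cd244a stayed called at -1.03 and -0.69. Ptprc (10 probes), the pan-leukocyte CD45, averaged -0.07, Cd46 (6 probes) -0.08 and Cd84 (5 probes) 0.09, none of them called.

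The human 8q-like head, 35 measured genes, had 5 higher and 0 lower, with 17.6% and 15.1% of all genes. In tumour 244, 19 of 35 reached 0.2, as did 361 of the 633 proximal genes and 28% of all genes. Higher were Cops5, a subunit of the COP9 signalosome, at 0.48 and Adhfe1 at 0.48, both on 2 probes, with Crispld1 at 0.28, Slco5a1 at 0.23 and Sulf1, a heparan sulfatase, at 0.22 on 18 probes. Under normexp Adhfe1 kept its call at 0.33, Cops5 fell to 0.09, Sulf1 to 0.11 and Slco5a1 to 0.17 without a call, and Crispld1 changed sign. The genes with the most probes were near 0: Sntg1 (85 probes) averaged -0.01, Xkr4 (45 probes) -0.02 and Kcnb2 (43 probes) 0.01. In tumour 244 these 3 gave 0.24, 0.16 and 0.18. Across all lists of chromosome 1, the median in tumour 244 lay between 0.15 (hepatocyte genes) and 0.30 (mitosis), where the 633 proximal genes had a median of 0.23, the 527 distal genes 0.24 and all genes of that array -0.002.

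For comparison, 38 human 1q-like genes on mouse chromosome 3 had a median of 0.07 in tumour 244. Of these, 11 were at 0.2 or more, where 28% of all genes of that array and 309 of 527 distal genes of chromosome 1 were. In that tumour the 527 distal genes had a median of 0.24, and all 936 genes of chromosome 3 had one of -0.03. The medians of these 38 genes were 0.09, 0.04 and 0.14 in tumours 239, 240 and 252. The listed chromosome 3 genes and the distal genes of chromosome 1 thus had different medians in tumour 244, a comparison within 1 sample and without a test.

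Among genes with at least 5 probes, the 4 highest below the boundary were Mroh2a at 0.39, Armc9 at 0.38, Aox4 at 0.35 and Xrcc5 at 0.34. Armc9 (13 probes, from 88057720 to 88172034) gave 0.33, 0.26, 0.53 and 0.40 (mean 0.38 ± 0.12, SD, n = 4; limma adjusted p = 0.00553). The 4 highest from the boundary were Stum at 0.42, Lrrn2 at 0.34, Rxrg, a retinoid receptor, at 0.33 and Mark1, a microtubule-affinity kinase, at 0.29. Stum (6 probes, from 182362567 to 182409044) gave 0.27, 0.37, 0.60 and 0.43 (mean 0.42 ± 0.14, SD, n = 4; limma adjusted p = 0.00491). All 8 were called, but they were picked by the same means that were tested, so their calls are no separate evidence. In a fit of genes with at least 5 probes alone, 38 of 397 on chromosome 1 were called higher and 10 lower. In each of the 8 genes tumour 244 was the highest. After GC correction Mroh2a kept an adjusted p below 0.05 (0.0462), and the other 7 did not. Under normexp Mroh2a rose to 0.71. Stum fell to 0.01, Rxrg to 0.03, Mark1 to 0.06, Xrcc5 to 0.09 and Armc9 to 0.10, all without a call, and Aox4 and Lrrn2 changed sign to -0.25 and -0.06.

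The 4 lowest genes below the boundary were all called by limma, among them ENSMUST00000115216 at -0.35 and Smap1 at -0.28. They too were picked by the means that were tested. ENSMUST00000115216 (10 probes) gave -0.41, -0.43, -0.15 and -0.42 in tumours 239, 240, 244 and 252. From the boundary the lowest were ENSMUST00000131716 at -0.21, Desi2 at -0.21, Dcaf8 at -0.19 and Hsd11b1 at -0.18, and 0 of these 4 were called. Without tumour 244 these 4 passed, with means of -0.28, -0.27, -0.26 and -0.26. After GC correction the 4 proximal genes had adjusted p between 0.0562 and 0.146.

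Single probes that were low in every tumour lay mostly below the boundary. On chromosome 1, 69 of 12492 probes (0.552%) were at -1 or below in all 4 tumours, against 0.635% of autosomal probes. They comprised 63 of 7759 probes below the boundary (0.812%) and 6 of 4733 from it (0.127%). Probes at 1 or above in all 4 tumours numbered 11 of 7759 (0.142%) below and 0 of 4733 from it, against 0.0824% of autosomal probes. The stretch from 20 to 30 Mb held 10 of the low probes and that from 90 to 100 Mb held 9. Of the 69 low probes, 35 lay in named genes, 62 were well above background in both colours on all arrays, and 58 stayed at -1 or below under normexp. The low ones held a CG pair in 44.9% and the high ones in 45.5%, with 34.1% over all probes of the chromosome.

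Low probe 1 gave -5.15, -6.05, -6.31 and -5.34 in tumours 239, 240, 244 and 252, and low probe 2 gave -3.71, -4.02, -4.36 and -3.68. Neither was well above background in both colours on all arrays, so the size of these values is uncertain. Under normexp low probe 1 gave -3.05 to -3.15 and low probe 2 gave -1.60 to -1.81. Low probe 3, well above background on all arrays, gave -3.00, -3.39, -3.07 and -3.31. The median of its 4 nearest neighbours was 0.05, 0.01, 0.19 and 0.02. Among the high ones, high probe 1 in Sh3bp4, an endocytosis adaptor, gave 1.91, 1.95, 2.33 and 2.25. High probe 2 in Tns1, a focal adhesion protein, gave 2.16, 1.64, 1.81 and 1.70, and high probe 3 gave 1.75, 1.997, 1.29 and 2.07. All 4 tumours shared these values, and each probe's 4 neighbours had a median between -0.70 and 0.40. Normal tissue of the tumour-bearing mice was not analysed here, so a difference already present in their germ line and a change in the tumour cannot be told apart.

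Levels by probe base composition differed in direction between tumours. The probes were ranked by GC content, where many probes share a value, so sets next to each other overlap in GC. In tumour 244 the 3123 chromosome 1 probes ranked lowest averaged 0.24 and the 3123 ranked highest averaged 0.18. In tumour 239 the same sets averaged -0.05 and -0.02, in tumour 240 -0.04 and -0.08, and in tumour 252 0.02 and -0.03. The mean GC content of probes was 36.7% below and 36.8% from the boundary. After GC correction the distal minus proximal difference was 0.027.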

How the data were processed

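Tumour and pooled liver DNA were compared on 4 Agilent 2-colour mouse CGH arrays. Per the submitters' processing notes, Agilent Feature Extraction 12.0.0 read the scans. Per the file headers, the processed intensity of a colour had its background subtracted, its spatial trend removed and a linear dye normalisation applied. The deposited value table holds the log10 ratio of tumour over pool per spot, not centred. Raw mean and background intensity columns were used for normexp. Positions are those of mm9, per the file headers.

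Control spots and spots flagged as outliers were dropped, repeated spots were averaged per probe, and the log2 ratio computed from the deposited intensities was centred on the median over chromosomes 1 to 19, with no loess or quantile step. An intercept-only model in limma (version 3.58.1, R version 4.3.3) tested 1 Mb bins holding 5 or more probes, and genes as the mean over probes of a name, with Benjamini-Hochberg adjustment over the whole array and a threshold of 0.05. The spread is that between 4 mice; the pool counts as 1 control sample and leaves out the controls' own spread. Region means were tested by exact sign-flip permutation. Segmentation was penalised least squares (penalty factor 10, at least 5 probes, neighbours closer than 0.1 merged, calls at 0.2 and -0.2). Bin tests were checked on simulated bins, with the residuals of the real bins shuffled within each tumour. Shuffling removes what the arrays share, so that check does not cover calls from shared effects. Segmentation was tried on simulated shifts. Other steps ran in Python 3.11.15, with scipy 1.17.1, numba 0.67.0, statsmodels 0.14.6, numpy 2.4.6, matplotlib 3.10.9 and pandas 2.3.3.

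Of 1160 gene names on chromosome 1, 954 matched a symbol and 46 a synonym of RefSeq GRCm38.p6, which served for names alone, and 160 kept the files' name. Named were Mdm4, the 3 best-covered chromosome 1 members of each gene list, the 4 highest and 4 lowest genes of at least 5 probes on each side of the boundary, and genes under focal segments, of which there were 0. Called list members, Nhej1, the named bins and the spread of low probes were added after their values were seen. The region and the gene lists were chosen with earlier results of these data known. Alternatives covered centring, normexp (offset 50), the value table, intensity and GC trends, a probe filter, bin, segment and call settings, a boundary at 140 Mb and leaving out each tumour. Some genes that the rule named are not reported here.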

Additional observations from a re-analysis of the deposited data

Results flagged for a closer look

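Of 85 values examined over 4 tumours each, 11 had 1 tumour lying apart from the other 3, where chance alone flags about 1 in 20. Tumour 244 stood apart in the mean below the boundary (0.19) and in the share of the chromosome in gained segments (100%). Tumour 239 stood apart in the share in lost segments (0.0277%), which is the locus of 5 probes. With the other 3 tumours at 0, a share is flagged whatever its size, so the rate of 1 in 20 does not hold for these shares.

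At the level of genes, tumour 244 stood above the other 3 in Xkr4 (0.16), Kcnb2 (0.18), ENSMUST00000115216 (-0.15), Bmpr2 (0.037), Kif1a (0.41), Ikbke (0.57) and Kcnh1 (0.37). Tumour 240 stood below them in Cr1l (-0.38). The values share the tumour and are not independent of each other.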

How the results depend on the processing

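The distal minus proximal difference kept its direction under every alternative run, from 0.022 (medians over probes) to 0.039 (without tumour 240). The mean below the boundary became -0.0143 with centring on the bin mode, chosen after seeing the data, and -0.0211 under normexp. Leaving out each tumour gave -0.048 to 0.0392 below the boundary and -0.0142 to 0.0783 from it. Bins called lower numbered 5 with the bin mode, and 0 under normexp, among well-measured probes and with 5 Mb bins. Leaving out each tumour gave 0 to 57 lower and 0 to 9 higher bins, with 0 to 593 and 0 to 310 over the array. Genes called higher and lower numbered 40 and 48 after GC correction, with 893 and 906 over the array. They numbered 38 and 10 of 397 with at least 5 probes, with 677 and 549 over the array. Under normexp 186 were lower, with 4589 over the array. Leaving out each tumour gave 104 to 178 higher and 53 to 151 lower, with 1668 to 2755 and 1463 to 2443 over the array. The gained share of tumour 244 was 0% with either mode, under normexp and with calls at 0.3. Tumour 239 had a lost share of 0% under normexp, GC correction, the probe filter, segments of 20 probes or drawn-in outliers. At a threshold of 0.1 it had 13.4%. This share includes its segment at -0.13, whose standing without the locus of 5 probes was not tested. The lost share of tumours 240 and 244 was 0.0277% after the intensity trend.

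Named genes that changed sign, and were called or moved by over 1 SD, did so under normexp: Kcnb2 (-0.13), Crispld1 (-0.0916), Aox4 (-0.25), Cyp27a1 (-0.42), Hdac4 (-0.0607), Agxt (-0.17), Tnfrsf11a (-0.22), Ikbke (-0.20), Lrrn2 (-0.0643), Ptprc (0.0478), Nek7 (0.0669), Aspm (-0.14), Cd84 (-0.0214), Fcer1a (0.033), Aim2 (-0.23), Ifi204 (-0.0701), Cnih4 (-0.20), Hsd11b1 (0.00557) and Cr1l (0.0229). The cause was not tested. No paired analysis was possible because all tumours form 1 group. With 4 tumours, a sign-flip p cannot go below 0.125, and small segments of modest shift could be missed at this probe noise.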
